A study of Mus musculus with 43 samples.

Results

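The genes described here are the 10 genes of cone phototransduction, Opn1sw, Opn1mw, Arr3, Gnat2, Gnb3, Gngt2, Pde6c, Pde6h, Cnga3 and Cngb3. They were taken by symbol from the 54532 genes of the deposited count table, and all 10 were found and passed the filter on low counts. In GRCm38 the opsin genes are Opn1sw at chr6:29376671-29388468 and Opn1mw at chrX:74127464-74150760. The arrestin is Arr3 at chrX:100605497-100618493. The transducin genes are Gnat2 at chr3:108092789-108101432, Gnb3 at chr6:124834240-124840275, Gngt2 at chr11:95837216-95845734. The phosphodiesterase genes are Pde6c at chr19:38132781-38183958 and Pde6h at chr6:136923832-136968865, and the channel genes are Cnga3 at chr1:37214434-37263384 and Cngb3 at chr4:19280850-19510623. Cones are the photoreceptors of daylight and colour vision, and in the mouse they are a small minority beside the rods. Light converts a cone opsin (Opn1sw for short and Opn1mw for medium wavelengths), which activates a transducin made of Gnat2, Gnb3 and Gngt2. Transducin releases the catalytic phosphodiesterase subunit Pde6c from its inhibitor Pde6h, cyclic GMP falls, and the channel of Cnga3 and Cngb3 closes. Arr3, the cone arrestin, shuts off the opsin. Most of these genes are used in the retina by cones only, but Gnb3 is also expressed by ON bipolar cells.

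Retinas of C57BL/6J mice were lasered at 9 weeks of age to induce choroidal neovascularization (CNV), in every group, and no unlasered retina was analysed here. Each library pooled 2 lasered retinas, taken from 2 mice of 1 group. Males and females received plain water (control) or short-chain fatty acids (SCFA) in the drinking water, started before the lesion, and retinas were taken 3, 7 or 14 days post-laser (dpl). The SCFA mix was sodium acetate at 67.5 mM, sodium propionate at 40 mM and sodium butyrate at 25 mM, but the g/L values stated for propionate and butyrate go with the opposite order, so these doses are uncertain. The 12 groups held 3 to 5 libraries each. The question was whether SCFA, sex or time after the lesion altered the RNA of cones.

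Library totals ran from 14826957 to 21507527 counts. Values are given as CPM, that is counts scaled to a common library size after TMM normalization. Several libraries stood apart. Female SCFA 3 dpl replicate 2 held 163900 CPM of lens transcripts against at most 672.3 CPM in the others, and was left out, which leaves 42 libraries. Female control 7 dpl replicate 2 held 784 counts of Y-linked genes and 1871 of Xist, where the other 21 female libraries held 0 Y-linked counts, so it goes against its label in part. Male SCFA 7 dpl replicates 1 and 3 had 15.3% and 16.6% of their counts on mitochondrial genes, above the 2.65% to 12.6% of the other 40 libraries. The deposited table also fell into 2 runs of columns, the first 31 and the last 12, and the second run had 2.65% to 4.87% mitochondrial counts against 5.19% to 16.6% in the first. What separates the runs is not stated. Every test held the run as a block, except in the alternative fits named as without the run. The tissue was retina by its markers, since the rod markers summed to at least 46330 CPM in each of the 42 libraries.

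The promoters of the opsins and of Gnat2 are shown because these 3 genes varied together over the libraries, as described further on. Pde6c varied with them as closely (r = 0.608 with Opn1sw, 0.694 with Gnat2 and 0.71 with Opn1mw), but no window was matched to it. RefSeq (GRCm38.p6) windows of 300 bases, from 250 before to 50 after a start site, matched 6 of the 10 genes, namely Opn1sw, Opn1mw, Arr3, Gnat2, Pde6h and Cnga3. Capitals mark TAATCC or its reverse complement GGATTA, the core motif of Crx and Otx2, and AGGTCA or its reverse complement TGACCT, the core motif of nuclear receptors such as Thrb, Rorb and Nr2f1.
Opn1sw, chr6:29380464-29380763, minus strand: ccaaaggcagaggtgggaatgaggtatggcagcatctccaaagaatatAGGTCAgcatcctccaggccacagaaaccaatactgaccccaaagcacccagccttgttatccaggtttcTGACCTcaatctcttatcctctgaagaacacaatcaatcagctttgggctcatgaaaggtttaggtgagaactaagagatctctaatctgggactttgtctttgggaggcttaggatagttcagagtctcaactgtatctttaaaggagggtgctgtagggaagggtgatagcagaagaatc
Opn1mw, chrX:74127216-74127515, plus strand: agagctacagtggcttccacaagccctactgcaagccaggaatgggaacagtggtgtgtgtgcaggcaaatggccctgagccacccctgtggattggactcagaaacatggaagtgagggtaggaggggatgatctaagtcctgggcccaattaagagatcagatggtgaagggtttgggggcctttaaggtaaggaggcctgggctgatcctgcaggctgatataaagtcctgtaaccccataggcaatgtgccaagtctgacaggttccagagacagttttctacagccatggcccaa
Gnat2, chr3:108092816-108093115, plus strand: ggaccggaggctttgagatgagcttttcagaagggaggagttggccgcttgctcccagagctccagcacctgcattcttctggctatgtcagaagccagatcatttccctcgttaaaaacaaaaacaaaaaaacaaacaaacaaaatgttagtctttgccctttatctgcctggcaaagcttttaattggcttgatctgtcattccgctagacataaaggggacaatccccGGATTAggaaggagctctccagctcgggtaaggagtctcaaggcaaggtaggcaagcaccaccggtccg
The Gnat2 window held GGATTA at 19 bases before the start, and 1 of the 6 genes, Gnat2, had this motif. The Opn1sw window held AGGTCA at 202 and TGACCT at 132 bases before the start. Opn1mw had neither. Over all 32851 promoters of the same length, 7.06% held the first motif and 16.3% the second, on either strand.

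By the median per kilobase of exon, the opsin of short wavelengths stood above the rest of the pathway and the channel subunits far below it. Opn1sw had a median of 267 RPKM (126.2 to 347.7 over 42 libraries), where RPKM is the CPM divided by the kilobases of all annotated exons of the gene. Opn1mw followed with 142.3 RPKM and lay below Opn1sw in 42 of 42 libraries. Gnb3 and Arr3, with medians of 139.8 and 138.6 RPKM, could not be ordered against Opn1mw or each other, since either neighbour was the higher in 21 of 42 libraries. Gnat2 (81.84 RPKM) was below Arr3 in 42 of 42 libraries, and Gngt2 (68.16 RPKM) was below Gnat2 in 31. The phosphodiesterase subunits Pde6h (35.99 RPKM) and Pde6c (35.82 RPKM) were not separated. The channel subunits Cnga3 (4.695 RPKM) and Cngb3 (4.545 RPKM) did not separate from each other either, and Cnga3 was 7.51-fold below Pde6c in the median library. With the shortest principal transcript as the length, Gngt2 rose to 256.9 RPKM, next to Opn1sw at 283.2 RPKM. Arr3 (240.1 RPKM) and Gnb3 (199.3 RPKM) then stood above Opn1mw (181.1 RPKM), and Cnga3 (8.918 RPKM) above Cngb3 (4.545 RPKM). The order of the medians below Opn1sw therefore depends on the transcript assumed. With these lengths the top place of Opn1sw did not hold in every library either. In female SCFA 14 dpl replicate 1, for example, Gngt2 was then above Opn1sw. Opn1sw shares 397 exon bases with Calu on the other strand, Gngt2 shares 234 with Abi3 and Pde6h shares 136 with Arhgdib. Since the strand setting of the counts is not given in the sources used here, reads of these overlaps cannot be assigned. Gnat1, the rod transducin alpha subunit, was far higher than Gnat2, at 6194 RPKM.

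**Figure D1:**
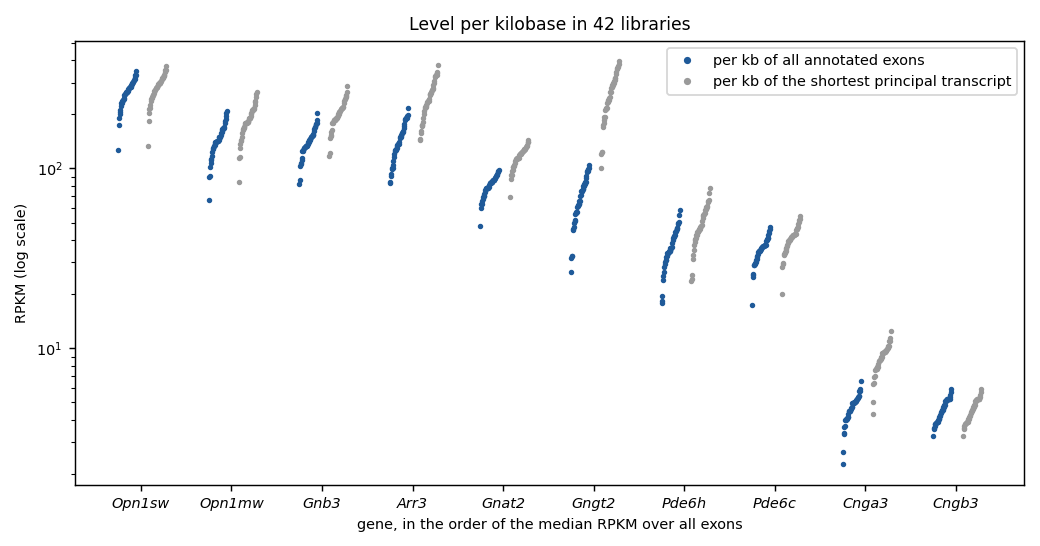
Level of each cone gene in the 42 libraries, as RPKM on a log axis, ordered by the median over all annotated exons (blue) and repeated with the shortest principal transcript as length (grey). Opn1sw (median 267 RPKM) lies at the top, Cnga3 and Cngb3 (4.695 and 4.545 RPKM) at the bottom, and Gngt2 moves most between the 2 lengths.

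Across the 12 groups each gene stayed within a narrow band. The highest group mean exceeded the lowest by 1.3-fold for Pde6c to 1.59-fold for Gngt2 and Pde6h. The opsin Opn1sw was lowest in male control 3 dpl (552.2 ± 61.23 CPM, SD, n = 4) and highest in male SCFA 14 dpl (750.7 CPM, n = 3). Opn1mw ran from 180 ± 15.67 CPM (SD, n = 4) in male control 3 dpl to 279.9 ± 42.71 CPM (SD, n = 3) in female control 3 dpl. The least variable genes over the 42 libraries were Gnat2 (coefficient of variation 13.3%) and Cngb3 (14.7%), and the most variable were Gngt2 (29.5%) and Pde6h (25.6%). The 10 genes summed to 1622 to 2948 CPM per library, which was 2.151% to 3.125% of the sum of cone genes and their 10 rod counterparts. In these bulk samples, fewer cones and less RNA per cone cannot be told apart.

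**Figure D2:**
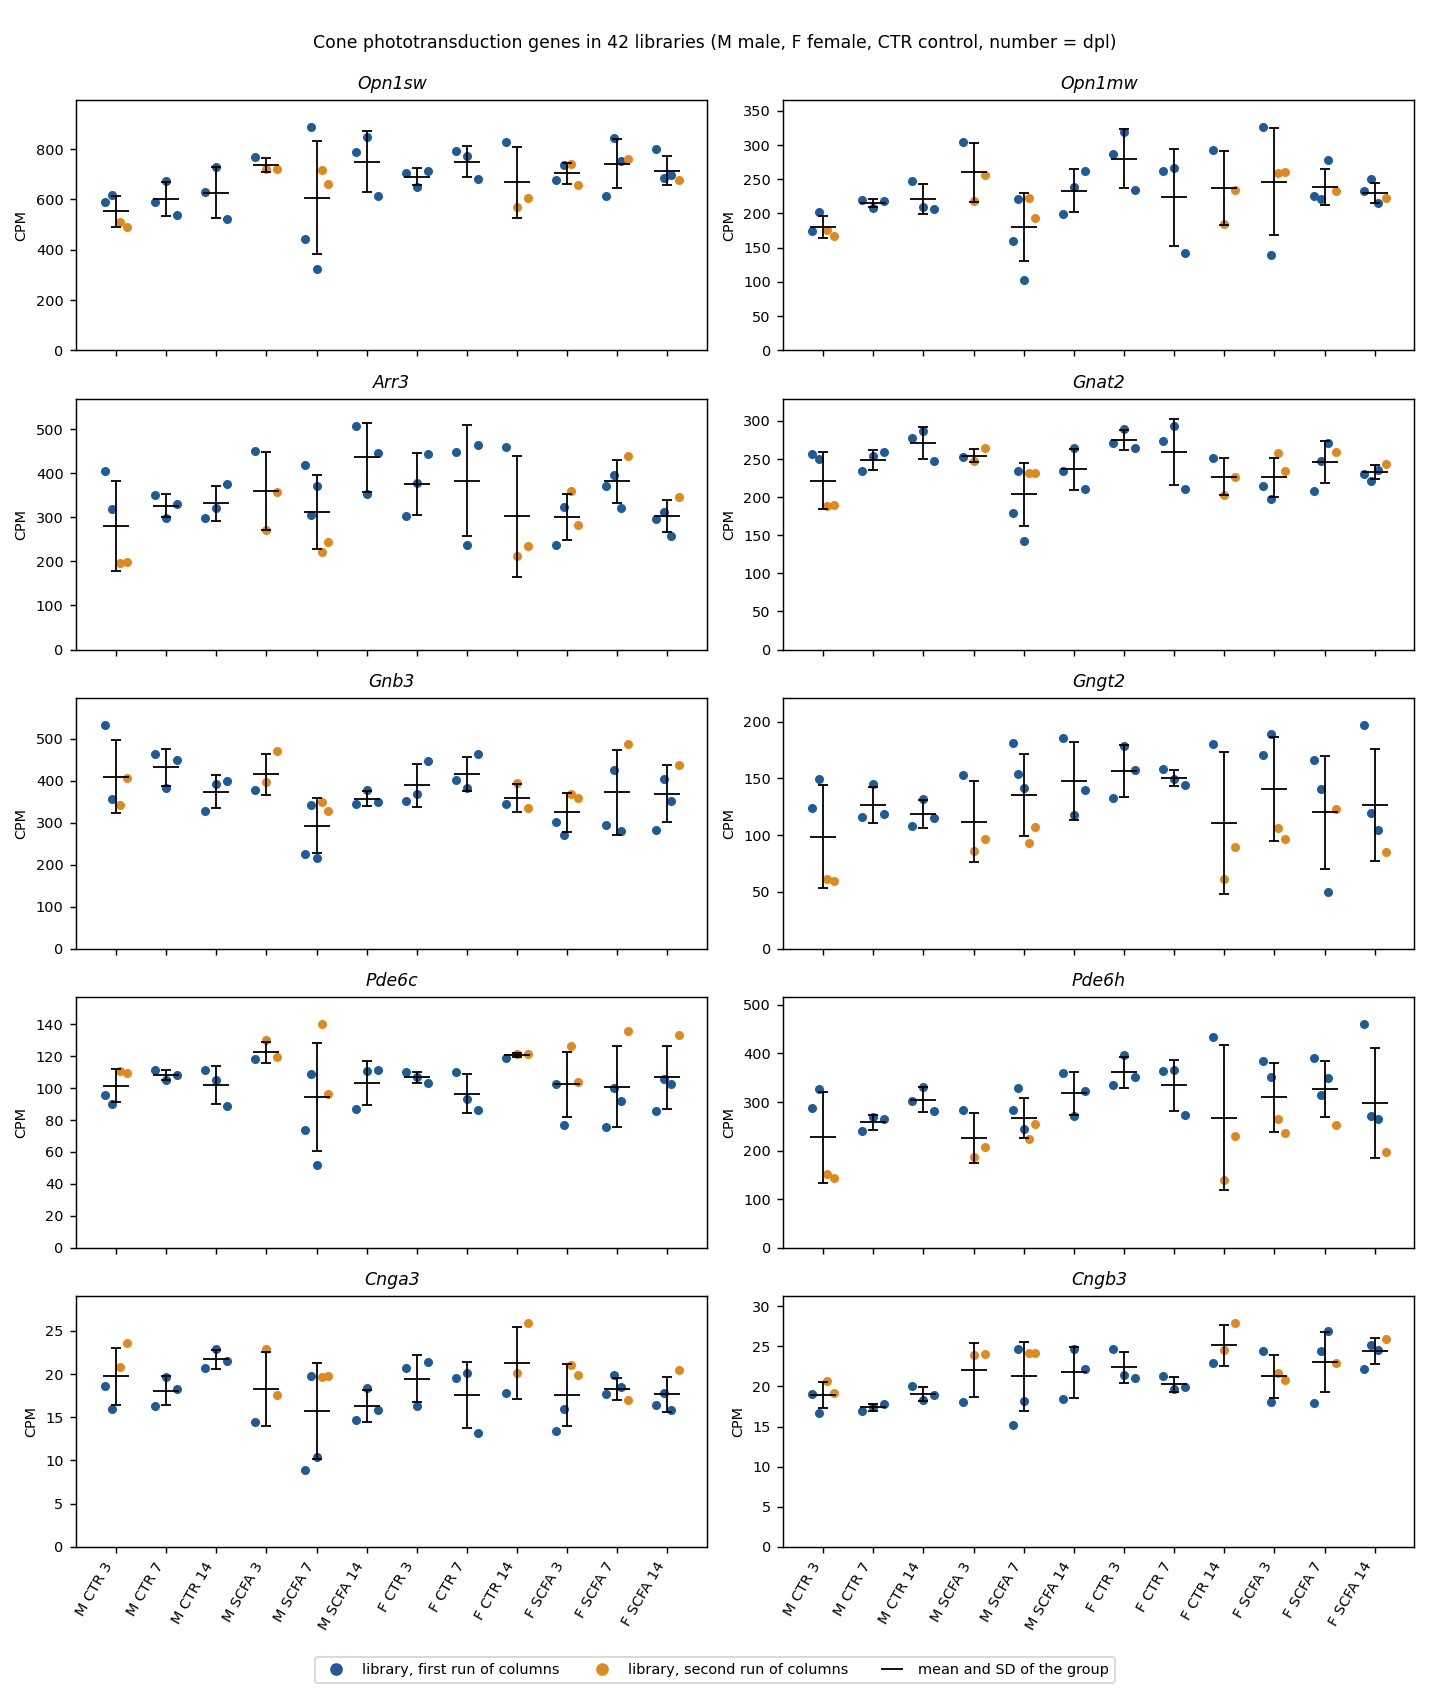
CPM of the 10 cone genes in the 42 libraries, by group, with the group mean and SD, and libraries coloured by run of columns. Male SCFA 7 dpl has the widest spread of Opn1sw, from 322.8 to 889 CPM, and Gngt2 and Pde6h of the second run lie low.

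Gnb3, the transducin beta subunit, was lower with SCFA in males at 7 dpl. It measured 226.1, 342.1, 216.8, 349.3 and 327.8 CPM in the 5 SCFA libraries and 463.4, 382.3 and 448.4 CPM in the 3 controls. Every SCFA library was below every control. Gnb3 alone of the 10 genes had groups without overlap here, and 8.68% of all genes were lower in this way. The log2 fold change was -0.66 ± 0.16 (SE), with an adjusted p of 0.00397 (edgeR quasi-likelihood test, Benjamini-Hochberg over 18173 genes). It was the only cone gene of 10 called in this comparison, in which 23.8% of all genes passed the same threshold of 0.1, so 1 of 10 is below the background share. Gnat2 (-0.30, adjusted p = 0.127), Pde6c (-0.37, adjusted p = 0.106) and Cnga3 (-0.37, adjusted p = 0.143) missed it by edgeR's test.

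The call for Gnb3 was kept when any single library was left out (9 of 9 fits), but not when the pair with many mitochondrial counts was. Male SCFA 7 dpl replicates 1 and 3 had the lowest Gnb3 of all 42 libraries. They were also the lowest for Opn1sw (444 and 322.8 CPM), Gnat2 (179.7 and 142.5 CPM), Pde6c (73.57 and 51.6 CPM) and Cnga3 (8.956 and 10.46 CPM). They were not low for Arr3 (417.3 and 370.7 CPM), Gngt2 (181.2 and 141.3 CPM) or Pde6h (283.2 and 243.9 CPM), which lay within the range of the other 40 libraries. In these 2 libraries the rod markers summed to 46330 and 55920 CPM, against 64610 to 96660 CPM in the other 40. The Müller glia markers summed to 8615 and 10260 CPM, against 4721 to 9173 CPM. The bipolar markers, which matter for Gnb3, were at 802.8 to 862.4 CPM in the 2 libraries and at 825.5 to 941.2 CPM in the controls. Unlike the gene values, these marker sums were not scaled by TMM, whose factors ran from 0.943 to 1.087 over the 42 libraries. Differences of that size between marker sums therefore cannot be read. The part of mitochondrial counts and of these markers in the result was not tested. Without replicates 1 and 3, an alternative chosen after seeing the data, Gnb3 was at -0.46 (edgeR adjusted p = 0.158), so the call was lost with 3 instead of 5 SCFA libraries, while those 3 still lay below the 3 controls. Opn1sw (0.44, adjusted p = 0.0889) and the channel subunit Cngb3 (0.41, adjusted p = 0.0977) were then called as higher with SCFA by edgeR, in a fit that called 736 of 18103 genes. Cngb3 measured 24.66, 24.17 and 24.17 CPM in SCFA replicates 2, 4 and 5 and 16.9 to 17.8 CPM in the controls. These CPM are not adjusted for the run, unlike the estimate. SCFA replicates 4 and 5 came from the second run and the 3 controls from the first. Over the 42 libraries the median of Cngb3 was 23.95 CPM in the second run and 19.95 CPM in the first.

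**Figure D3:**
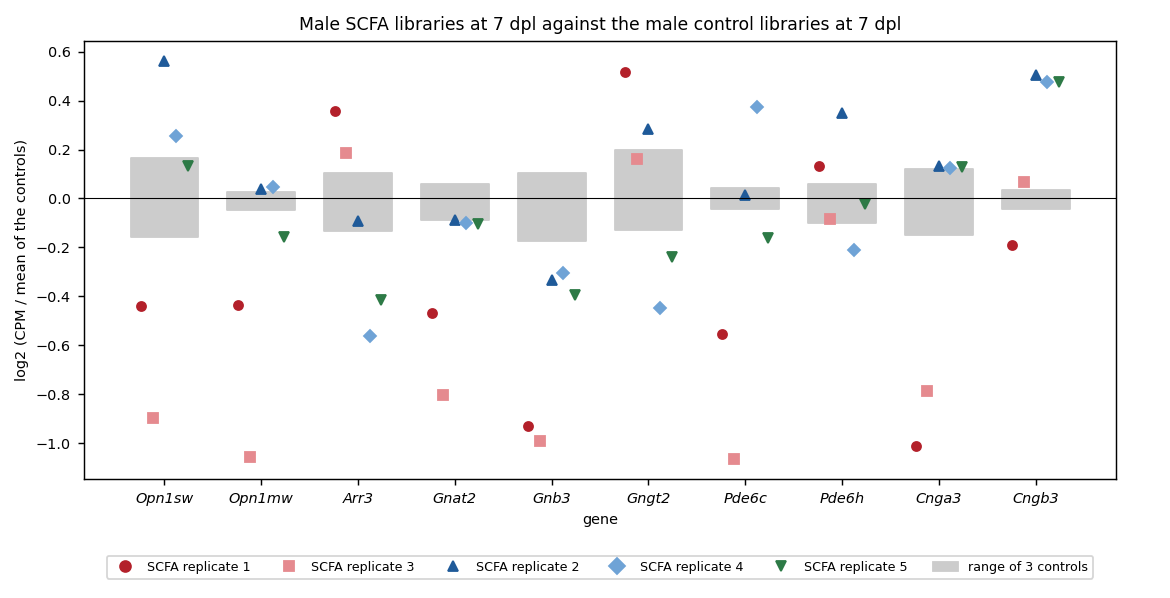
log2 ratio of each male SCFA library at 7 dpl to the mean of the 3 male controls, per cone gene, with the range of the controls in grey. Replicates 1 and 3 (red) lie low for Opn1sw, Opn1mw, Gnat2, Gnb3, Pde6c and Cnga3 and not for Arr3, Gngt2 or Pde6h, and all 5 libraries lie below the controls for Gnb3.

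Averaged over both sexes and all 3 days, Cnga3 and Gnb3 were lower with SCFA by small amounts. Cnga3, the channel subunit that can form channels alone, had a log2 fold change of -0.24 ± 0.07 (SE, adjusted p = 0.0125, edgeR). Its estimate was below 0 in 6 of 6 strata of sex and day. Gnb3 had -0.21 ± 0.07 (SE, adjusted p = 0.0222, edgeR) and was below 0 in 5 of 6 strata. The other 8 genes were not called, with estimates from -0.11 for Gnat2 to 0.18 for Gngt2. These 2 of 10 calls stand against 36.7% of all genes called in this comparison. Both calls were kept when any single library was left out, with adjusted p of at most 0.0557 for Gnb3 and at most 0.0414 for Cnga3 (edgeR). Both were lost when the run of columns was not in the fit (adjusted p = 0.129 for Gnb3 and 0.149 for Cnga3, edgeR). Without male SCFA 7 dpl replicates 1 and 3, edgeR called 4 of 10 cone genes and 5851 of 18103 genes in all. Cnga3 (-0.18, adjusted p = 0.0282) and Gnb3 (-0.17, adjusted p = 0.0639) remained lower by edgeR, while Opn1sw (0.22, adjusted p = 0.0021) and Cngb3 (0.14, adjusted p = 0.0399) were higher. The subunits of the same channel had estimates of opposite sign. Mitochondrial counts ranged from 3.95% to 16.6% in SCFA libraries and from 2.65% to 9.71% in controls, and their part in the result was not tested.

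**Figure D4:**
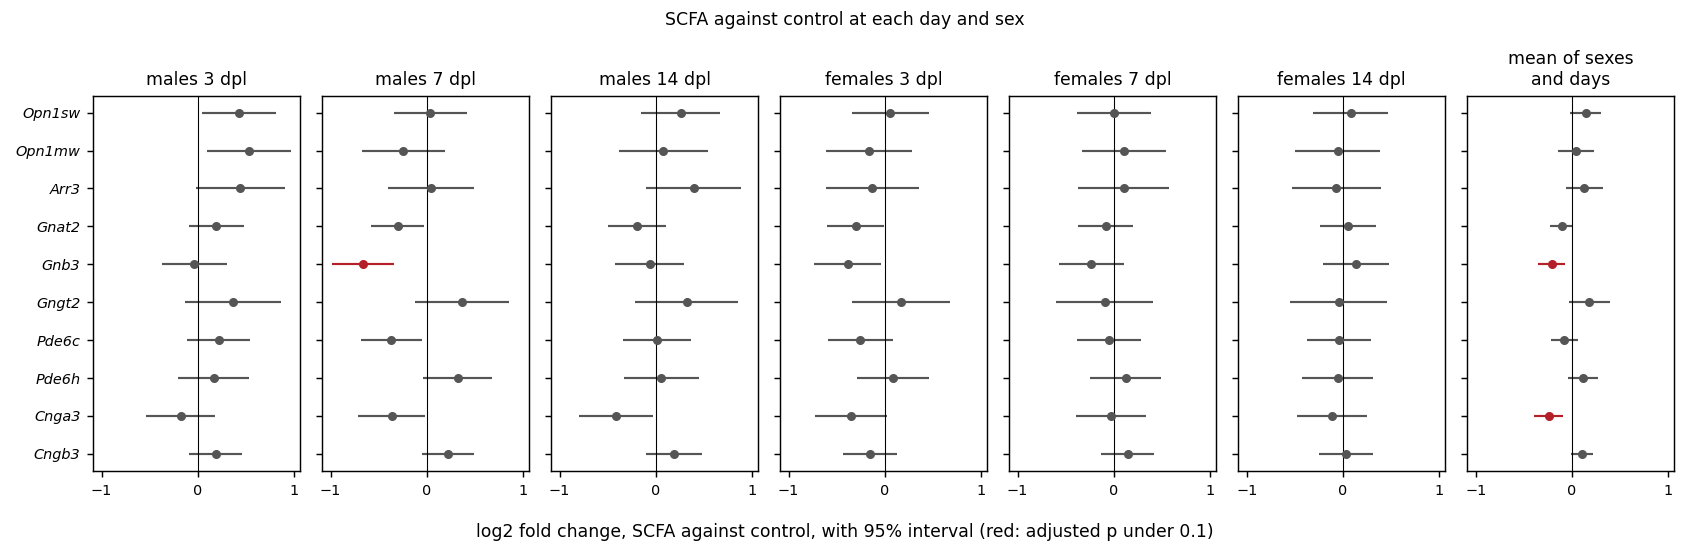
log2 fold change of each cone gene, SCFA against control, with its 95% interval, in males and females at 3, 7 and 14 dpl and as the mean of the 6 strata, with called genes in red. Gnb3 is called in males at 7 dpl, and Gnb3 (-0.21) and Cnga3 (-0.24) in the mean.

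In the other strata edgeR called no cone gene with SCFA, and DESeq2 called none either. In males at 3 dpl the estimates lay between -0.17 for Cnga3 and 0.53 for Opn1mw, with 2 of 10 genes at an unadjusted p under 0.05 and 0.0275% of all genes called. Of all 18173 genes, 2187 were at that unadjusted level by edgeR. The opsin Opn1mw measured 305, 218.6 and 256.1 CPM with SCFA and 174.9, 202.8, 175.5 and 166.9 CPM in controls, a log2 fold change of 0.53 with a 95% interval of 0.10 to 0.97 (adjusted p = 0.321, edgeR). Without the filter on low counts its adjusted p was 0.0229 (edgeR). Opn1mw, Opn1sw and Pde6c were higher in every SCFA library than in every control here, 3 of 10 genes against 4.96% of all genes. For Pde6c the estimate with the run in the fit was 0.22 (adjusted p = 0.613, edgeR). Rod genes were higher alongside, since the rod markers summed to 85600 to 88670 CPM with SCFA and 71350 to 78030 CPM in controls, and the median estimate was 0.25 for the 10 rod counterparts and 0.21 for the cone genes. The part of this in the result was not tested. In males at 14 dpl, 9.68% of all genes were called, and 1 cone gene, Cnga3, had an unadjusted p under 0.05. That unadjusted level was met by 4096 of 18173 genes. Cnga3 measured 14.7, 18.36 and 15.89 CPM with SCFA and 20.76, 22.92 and 21.49 CPM in controls, without overlap, which 17.4% of all genes showed in this direction. Its log2 fold change was -0.41 (95% interval -0.80 to -0.03, adjusted p = 0.187, edgeR).

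In females the estimates at 3 dpl ran from -0.39 for Gnb3 to 0.17 for Gngt2, with 2 of 10 genes at an unadjusted p under 0.05 and 0.418% of all genes called. Of all 18173 genes, 2717 were at that unadjusted level by edgeR. Gnat2 was lower in every SCFA library (197.8 to 257.5 CPM) than in every control (264.8 to 289.1 CPM), as were 5.32% of all genes. At 7 dpl the estimates ran from -0.23 to 0.14, with 0 of 10 genes at an unadjusted p under 0.05 and 0.941% of all genes called. Without the control library that carried Y-linked counts, edgeR again called none of the 10. At 14 dpl the estimates ran from -0.11 to 0.13, with 0 genes at that level and 0% of all genes called. No 95% interval in females at 14 dpl reached beyond -0.55 or 0.47, so a log2 change of 1 in either direction lay outside the interval of every cone gene.

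The response to SCFA was not shown to differ between the sexes. No interaction of sex and SCFA was called for a cone gene by edgeR or DESeq2, except for Opn1mw at 3 dpl when edgeR was run without the filter on low counts (adjusted p = 0.0928). At 3 dpl all 10 interaction estimates were above 0, meaning a higher value of the SCFA effect in males, from 0.08 for Pde6h to 0.70 for Opn1mw. All 10 share the male control 3 dpl libraries, where the rod markers summed to 71350 to 78030 CPM. In female controls at 3 dpl these markers summed to 75810 to 82700 CPM, which overlaps the male range. Since these sums were not scaled by TMM, a difference of this size cannot be read, and the part of rod markers in the result was not tested. The 3 genes Opn1mw, Gnat2 and Pde6c had an unadjusted p under 0.05, and 0% of all genes were called. That unadjusted level was met by 1496 of 18173 genes. At 7 dpl the interaction for Gnb3 was -0.43 ± 0.23 (SE, adjusted p = 0.626, edgeR), with 0 of 10 at an unadjusted p under 0.05 and 0.0165% of all genes called. At 14 dpl the estimates ran from -0.30 to 0.46, again with 0 of 10 at that level and 0% of all genes called.

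Between the sexes, Pde6h, the inhibitory phosphodiesterase subunit, was lower in males. Over treatments and days its log2 fold change was -0.25 ± 0.07 (SE, adjusted p = 0.0936, edgeR), close to the threshold. Cngb3 had -0.18 ± 0.06 (SE, adjusted p = 0.104, edgeR) and just missed it. Over all genes 1.9% were called, and the 1 of 10 cone genes is Pde6h. DESeq2 and RLE scaling called both genes. Leaving out single libraries lost the call for Pde6h in 24 of 42 cases, with adjusted p from 0.0267 to 0.154 (edgeR). Without female control 7 dpl replicate 2, the library with Y-linked counts, Pde6h had an adjusted p of 0.106 and Cngb3 of 0.0981 by edgeR. In the fit without the run, Pde6h kept its size (-0.25) with an adjusted p of 0.388 (edgeR).

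Among controls at 3 dpl all 10 estimates were lower in males, from -0.03 for Gnb3 to -0.62 for Opn1mw, and none was called by edgeR or DESeq2. The share of all genes called was 0.0495%, and 4 of 10 cone genes had an unadjusted p under 0.05. That unadjusted level was met by 1016 of 18173 genes. Rod genes were lower alongside, with a median estimate of -0.17 for the rod counterparts and -0.21 for the 8 rod markers, beside -0.31 for the cone genes, and their part in the result was not tested. Opn1mw measured 174.9, 202.8, 175.5 and 166.9 CPM in males and 286.5, 319 and 234.4 CPM in females. The opsins, Gnat2, Pde6h and Cngb3 were lower in every male than in every female library, 5 of 10 genes against 4.75% of all genes. Of these libraries, 2 of the 4 males and 0 of the 3 females came from the second run, in which Pde6h was low. For Opn1mw the first-run males, at 174.9 and 202.8 CPM, were themselves below the 3 females. These controls are also the reference of the male SCFA comparison at 3 dpl, so the values of Opn1mw in both rest on the same libraries. At 7 dpl no gene was called by edgeR or DESeq2 and 0 of 10 had an unadjusted p under 0.05, with 0.0495% of all genes called. Opn1sw, Pde6h and Cngb3 were lower in every male library, as were 5.13% of all genes. Arr3 was at 297.4 to 350 CPM in males and at 446.9, 238.1 and 463.6 CPM in females, where the low value was that of the library with Y-linked counts. At 14 dpl 6.28% of all genes were called and no cone gene was, by edgeR or DESeq2, with 0 of 10 at an unadjusted p under 0.05. Cngb3 (20.01, 18.35 and 18.91 CPM in males, 22.91, 24.6 and 27.9 CPM in females) and Pde6c were lower in every male library, as were 10.2% of all genes. These CPM are not adjusted for the run, and 2 of the 3 females but 0 of the 3 males came from the second run. With the run in the fit the estimate was -0.01 for Pde6c (adjusted p = 0.988, edgeR) and -0.28 for Cngb3 (adjusted p = 0.303, edgeR).

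Time after the lesion left no called change in any cone gene. Between 3 and 7 dpl the control estimates, as means of the sexes, ran from -0.09 to 0.14, with 0 of 10 genes at an unadjusted p under 0.05 and 0% of all genes called by edgeR. Between 7 and 14 dpl they ran from -0.29 for Gnb3 to 0.16 for Cngb3, with 1 gene, Gnb3, at that level and 0% of all genes called. Of all 18173 genes, 1800 were at that unadjusted level. With SCFA, the estimates between 3 and 7 dpl ran from -0.29 for Opn1mw to 0.08 for Cngb3, with 1 gene, Opn1mw, at that level and 0% called. Of all 18173 genes, 955 were at that unadjusted level. Between 7 and 14 dpl they ran from -0.09 for Pde6h to 0.20 for Pde6c, with 0 genes at that level and 0.319% of all genes called. DESeq2 called no cone gene in these 4 comparisons. The widest 95% interval among them reached from -0.46 to 0.31, for Gngt2 between 7 and 14 dpl in controls.

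Between the runs edgeR called 7 of 10 cone genes, 4 higher and 3 lower in the second run, where 53.3% of all genes were called. Pde6h was lower, with 241.3 to 460.6 CPM in the first run and 140.3 to 264.7 CPM in the second (log2 fold change -0.66, adjusted p = 8.826e-07, edgeR). Gngt2, the transducin gamma subunit, was also lower (-0.76, adjusted p = 1.185e-05, edgeR), as was Arr3 (-0.34, adjusted p = 0.0197, edgeR). Pde6c (0.36), Cnga3 (0.37), Gnb3 (0.23) and Cngb3 (0.17) were higher. Both opsins and Gnat2 were not called, with estimates of -0.06, -0.04 and 0.04. Subunits of the same protein therefore went opposite ways between the runs, Pde6c against Pde6h and Gnb3 against Gngt2. Among rod counterparts, Gngt1 (-1.19) and Pde6g (-0.26) were lower, while Gnb1 (0.29), Pde6b (0.25), Pde6a (0.34) and Cngb1 (0.14) were higher, each with an adjusted p under 0.1 by edgeR. Group and run are mixed, since 5 of the 12 groups had libraries of the first run only.

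**Figure D5:**
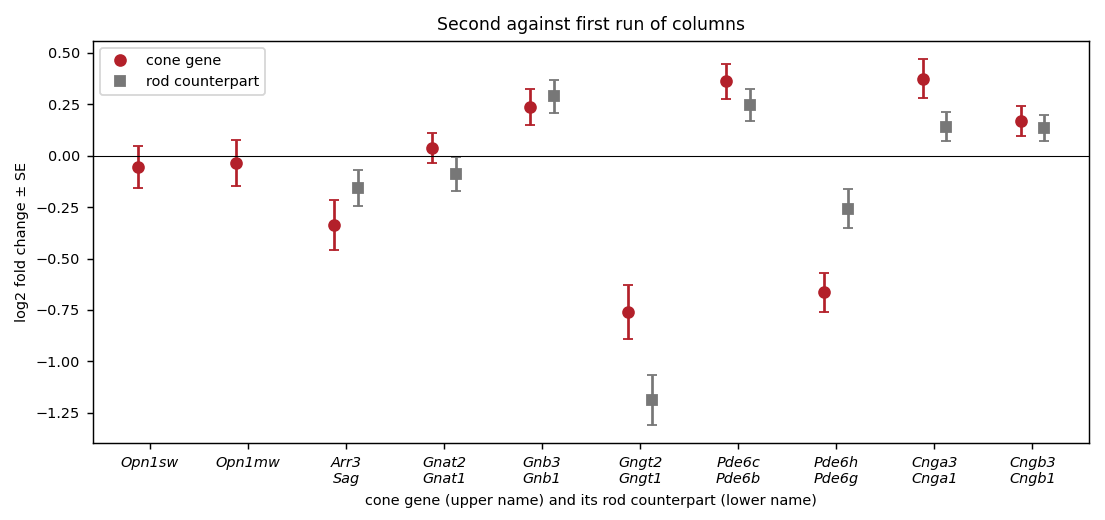
log2 fold change between the second and the first run of columns, with its SE, for each cone gene (red) and, for the 8 genes other than the opsins, a rod counterpart (grey). Gngt2 (-0.76) and Pde6h (-0.66) are lowest among the cone genes, as Gngt1 (-1.19) and Pde6g (-0.26) are among the rod genes.

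Other genes of the pathway were followed by 3 lists, chosen with earlier results of these data known. The alternative fits covered the cone genes only. How far the values of these lists depend on the run or on male SCFA 7 dpl replicates 1 and 3 was not tested. Of 10 genes listed as cone transcription factors and opsin regulators, measured in whole retina, 5 were higher and 1 was lower in the mean over sexes and days. This stands against the 36.7% of all genes given above. Neurod1, a photoreceptor differentiation factor that sustains Thrb, had 0.65 ± 0.09 (SE, adjusted p = 5.292e-06, edgeR), Thrb, the thyroid hormone receptor needed for Opn1mw, had 0.30 ± 0.06 (SE, adjusted p = 0.00037, edgeR), and Nr2f2, a repressor in opsin patterning, had 0.28 ± 0.08 (SE, adjusted p = 0.00873, edgeR). Opn1mw itself had 0.04 ± 0.09 (SE, adjusted p = 0.763, edgeR). In males at 7 dpl 4 of these 10 listed factors and regulators were higher and 0 lower, against 23.8% of all genes. Of the 10 rod counterparts, 2 were higher and 1 lower in the mean, with a median of 0.06 beside 0.07 for the cone genes and -0.01 for all genes. Gngt1 was higher (0.50 ± 0.10, SE, adjusted p = 0.000198, edgeR), Pde6a was higher (0.20) and Cnga1 lower (-0.13). Of 14 genes of deactivation, calcium feedback and the retinoid cycle shared with rods, 1 was higher and 2 lower in the mean. Abca4, the retinoid flippase of the outer segment, was lower (-0.31 ± 0.06, SE, adjusted p = 0.000228, edgeR), as was Rgs9 (-0.31), while Rdh12 was higher (0.16).

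Over the 42 libraries, with the mean of each run removed, the cone genes followed each other only in part. The 45 pairs of genes had a median Pearson r of 0.298 on the log2(CPM + 1) scale, from -0.312 for Gngt2 and Cnga3 to 0.71 for Opn1mw and Pde6c, and 13 pairs were above 0.5. Opn1mw and Gnat2 (r = 0.701), Gnat2 and Pde6c (r = 0.694) and Opn1sw and Gnat2 (r = 0.672) were among the closest. Gngt2 and Pde6h, which were both low in the second run, had an r of 0.575 with the run means removed. The genes outside the list whose pattern was most like the mean of the 10 were Pde6g (r = 0.909), the inhibitory subunit of the rod phosphodiesterase, Aipl1 (r = 0.872), its chaperone, Hmgn1 (r = 0.868), Snrnp27 (r = 0.846) and Ssu72 (r = 0.833). These values describe 42 libraries that share groups and differ in mitochondrial share, and carry no test.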

How the data were processed

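Retinal RNA was sequenced by the study as paired-end reads of 150 bases, and the authors deposited raw read counts per gene for 43 libraries. The submitters' processing notes name mm10 and DESeq2. The aligner, counter, annotation and strand setting are not given in the sources used here. Groups came from the sample titles, because the treatment tag read control for all. Gene identifiers were matched to GENCODE M21 (GRCm38), which holds 54495 of 54532. Counts were filtered by filterByExpr, scaled by TMM and fitted in edgeR 4.0.16 (R 4.3.3) by its quasi-likelihood test, with 12 groups and the run of columns as a block, over 42 libraries and 18173 genes with 29 residual degrees of freedom. A call was a Benjamini-Hochberg adjusted p under 0.1 over all genes, and no fold threshold was set. DESeq2 1.42.0 was an alternative. Tables and figures were made with Python 3.11.15, pandas 2.3.3 and matplotlib 3.10.9. The fit was tested on simulated counts before use. The members and all lists were chosen with earlier results of these data known. The named genes were all 10 members in every comparison, at most 3 passing genes of each other list with the smallest adjusted p, and the 5 genes most like the mean of the members. Replicate numbers did not pair the libraries. Libraries are pools of different mice. RPKM divides CPM by exon kilobases, and counts of the lowest cone gene, Cnga3, were at least 140 per library. The authors' fold changes were not used. CPM, RPKM and promoter windows were computed or read as stated with the results. The level of 1 gene is not reported here.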

Additional observations from a re-analysis of the deposited data

Results flagged for a closer look

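Opn1sw in female SCFA 14 dpl was 800 CPM in replicate 1, far from the 678.6 to 696.6 CPM of the other 3 libraries. Its gap to the nearest value was 0.852 of the range, over the critical 0.829 for 4 libraries. Of 50 pairs of gene and group with 4 or 5 libraries, this was the 1 that stood out, and chance gives about 1 in 20 such groups. In the library left out for its lens transcripts, female SCFA 3 dpl replicate 2, Opn1sw was at 767.4 CPM. This was above the 712.1 CPM of the highest female control at 3 dpl, while the other 9 cone genes did not exceed their controls. The value comes from a separate TMM scaling over all 43 libraries, and the difference rests on that scaling. Before it, Opn1sw had 9385 of 17375883 counts in this library, against 11230 of 17485722 in female control 3 dpl replicate 2.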

How the results depend on the processing

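Counts of cone genes called are out of 10, against 1 for SCFA in males at 7 dpl, 2 for the mean SCFA effect, 1 (Pde6h) for the mean sex difference and 0 elsewhere. In the main fit the shares of all genes called were 23.8%, 36.7% and 1.9% in these comparisons, in that order. The shares in the alternative fits are not given in this section, so a change in these counts cannot be read as a result about cone genes. For SCFA in males at 7 dpl the count was 3 without the filter on low counts, 3 with the first 31 columns only and 3 with a replicate block. It was 2 without replicates 1 and 3. The study's choice of libraries, which also left those replicates out and was fitted separately without the run, gave 2. With an absolute log2 fold change over 1 the count was 0. Leaving out single libraries gave 1 to 4, and 4 without male SCFA 7 dpl replicate 2. For the mean SCFA effect it was 3 (Gnat2, Gnb3 and Cnga3) with the first 31 columns only and with the replicate block, 4 without the filter, 0 without the run, 4 without male SCFA 7 dpl replicates 1 and 3, 0 with the fold threshold, and 2 to 4 leaving out single libraries, with 4 without replicate 1 of that group. For the mean sex difference it was 2 with RLE, without the filter, with the lens library, without those 2 libraries and by DESeq2, 0 without the run, with the fold threshold or at an adjusted p under 0.05, and 0 to 2 leaving out single libraries. Elsewhere no filter gave 1 (Opn1mw) for SCFA in males at 3 dpl, for sex in controls at 3 dpl and for the interaction at 3 dpl. Males at 14 dpl had 1 (Cnga3) without the 2 libraries and 2 (Arr3, Cnga3) with the study's libraries. Those libraries gave 4 for SCFA in females at 14 dpl, where the run and the treatment cannot be told apart, and 1 (Arr3) for sex in controls at 7 dpl. The cause of these shifts was not tested. No called result changed direction.

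Replicate numbers name the libraries and do not pair them, since 26 pairs of libraries with the same number had a mean correlation of 0.005 (-0.412 to 0.488). With the replicate block, Pde6h in the mean sex difference had an adjusted p of 0.104 (edgeR) and Cngb3 of 0.0952. Of the 176 of 180 uncalled pairs of gene and comparison, 63 of 3882 alternative fits made a call and 276 changed the sign of the estimate. Precision is limited by 3 to 5 libraries a group, by the run, and by pools of 2 retinas. Depth was at least 140 counts for each cone gene in each of the 42 libraries.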
